A study of Mus musculus with 9 samples.

Results

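Wild-type clones of XEN cells were compared with the wild-type XEN libraries named WT_EV, both deposited in a series on a deletion upstream of Xist. The comparison takes 5 of the 9 libraries of the series: 2 named WT_clone (clone 1 and clone 2) and 3 named WT_EV. They were joined by gene identifier, and only genes with complete rows in both count tables were kept, which left 11512 of 55401 genes. The kept genes lie on chromosome 1 (3446 genes), chromosome 2 (3794), part of chromosome 3 (1646 of 2885) and chromosome X (2626). Genes elsewhere were not analysed here. Both groups carry the genotype label WT, the cell line label XEN and the cell type label of an extra-embryonic endoderm stem cell. WT_EV is labelled female with the breed Mus musculus molossinus X Mus musculus, and WT_clone is labelled Hybrid (Mus Molassinus X Mus Musculus) with no sex given. All were grown in DMEM with FBS, and total RNA was taken by Trizol. The other 4 libraries are labelled as carrying a paternal (DXp, n = 2) or a homozygous (DXp_DXm, n = 2) Xist deletion and served here to estimate the spread between replicates. The series title places the deletion upstream of Xist, and Xist counts were higher in these 4 libraries than in every WT_EV library (values below), so they are called the libraries labelled DXp and DXp_DXm. What EV stands for is not given in the sources used here, and neither is which of the named stranded kit makes (NEBNext Ultra or Tru-seq) was used for which library. Each WT_clone library is 1 clone. No source tells if separate cultures gave the WT_EV libraries, and p-values therefore cover the spread among these libraries alone, which may be technical.

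XEN cells are stem cell lines derived from the primitive endoderm, the tissue of the early embryo that gives rise to visceral endoderm around the embryo and parietal endoderm along the yolk sac. Primitive endoderm is specified by transcription factors of the GATA, SOX and FOX families, and its parietal branch secretes a thick basement membrane of laminin, collagen IV and proteoglycans. In female XEN cells the X chromosome inherited from the father is silenced by imprint, with Xist RNA coating it. Because all of these are cell lines, fewer cells of a type and less RNA per cell could not be told apart in what follows.

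In the joined genes the WT_EV libraries held 2488752, 3185905 and 2298180 counts and the WT_clone libraries 7641676 and 5825838. The 5 libraries detected from 3902 to 4677 of these genes. Levels are given as CPM, the TMM-scaled count per unit depth of the joined genes alone, and not of the whole library. The clones differed from each other more than the WT_EV libraries did. Of 2224 genes with a mean of at least 10 CPM, 606 (27.2%) lay at least 2-fold apart between clone 1 and clone 2 (after adding 0.5 CPM), against 44, 287 and 261 for the WT_EV pairs 1 with 2, 1 with 3 and 2 with 3. The Spearman correlation between the clones was 0.943 across the genes tested, against 0.965 to 0.987 between WT_EV libraries and 0.878 to 0.902 between a clone and a WT_EV library. The clones and WT_EV come from separate count tables.

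Of 3302 genes with enough counts to test, 1011 (30.6%) passed an adjusted p under 0.05 in edgeR's quasi-likelihood test, 504 higher in WT_clone (15.3%) and 507 lower (15.4%). At least 2-fold apart and past that threshold were 415 higher (12.6%) and 482 lower (14.6%). Among 2401 protein-coding genes 456 were higher (19%) and 217 lower (9.04%), with a median log2 change of 0.20. These shares are the background for the gene lists below. Among 98 genes for microRNAs 91 were lower, of which 86 lie in 1 cluster and passed the filter through WT_EV, so they could only be lower. The total depended on which WT_EV library was left out: 557 genes passed without WT_EV replicate 1, 552 without WT_EV replicate 2 and 907 without WT_EV replicate 3. With offsets for GC content and transcript length (below, with the library composition) 876 genes passed, 512 higher (15.5%) and 364 lower (11%), and 670 passed in the same direction with and without offsets, 1 in the opposite direction.

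**Figure D1:**
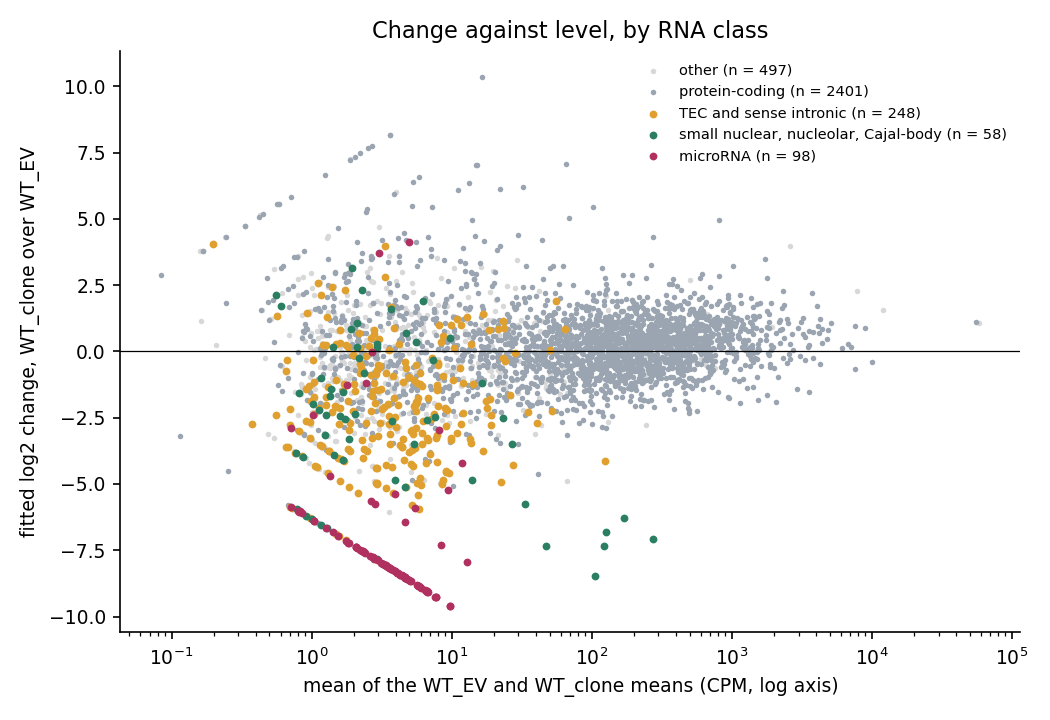
Each point is 1 of the 3302 genes tested, placed by its mean level in the 2 groups (CPM, log axis) and its fitted log2 change, WT_clone over WT_EV. Protein-coding genes centre near 0 (median 0.20), while 91 of 98 microRNA genes were lower, 86 of them genes of 1 cluster that passed the filter through WT_EV and could only be lower; the straight run of microRNA points at the bottom holds genes with 0 counts in both clones, whose fitted value depends on the prior count.

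The label of the cells was checked against endoderm genes on these chromosomes. Of 6 primitive endoderm factors there, 2 were lower in the clones, 1 was higher and 3 did not pass. Sox17, a transcription factor of definitive and primitive endoderm, had 3530, 2682 and 3561 CPM in WT_EV and 1367 and 367 CPM in WT_clone. The groups did not overlap, and the log2 change was -1.91 (adjusted p = 0.014, SE 0.47), or -3.13 without clone 1 and -1.23 without clone 2. Sall4, a zinc-finger factor shared by embryonic and XEN stem cells, stood at 3148, 3030 and 2227 CPM in WT_EV and 1611 and 1282 CPM in WT_clone. The log2 change of -0.95 (adjusted p = 0.0343, SE 0.30) was a call that ended without WT_EV replicate 1 (adjusted p = 0.103), WT_EV replicate 2 (0.0981) or clone 2 (0.139). Foxa2, a forkhead factor of endoderm, had 789, 585 and 793 CPM in WT_EV and 571 and 115 CPM in WT_clone, and Hnf4a, a nuclear receptor of visceral endoderm, 355, 313 and 206 CPM in WT_EV and 179 and 55.98 CPM in WT_clone. Neither passed (adjusted p = 0.196 and 0.066), although both clones lay below all WT_EV libraries in each. The summed level of the 6 factors was 8637 to 10283 CPM in WT_EV and 3591 to 5173 CPM in WT_clone.

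The factor that rose was Gata3, a GATA factor better known from trophoblast and T cells. It had 0.322, 0 and 0.345 CPM in WT_EV and 6.34 and 53.6 CPM in WT_clone, which is 2 counts over the WT_EV libraries, so its ratio is given with a counting interval: 146 (39.98 to 1206) times higher in WT_clone (95% exact interval, counting error only), at an adjusted p of 0.00521. Clone 2 carried most of that level, but both clones lay above all WT_EV libraries.

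Genes of the basement membrane and parietal endoderm moved in both directions. Lamc1, the laminin gamma-1 chain found in nearly all laminins, was the most abundant of the joined protein-coding genes in both groups. Its level was 33317, 35665 and 37428 CPM in WT_EV and 123901 and 27995 CPM in WT_clone, so clone 1 was far above and clone 2 below every WT_EV library. It did not pass (log2 change 1.10, SE 0.49, adjusted p = 0.106), and without clone 1 the value turned to -0.32. Fn1, the matrix glycoprotein fibronectin, had 30.9, 55.3 and 65.9 CPM in WT_EV and 2676 and 476 CPM in WT_clone. Both clones lay above all WT_EV libraries, clone 1 the higher. The log2 change was 4.96 (adjusted p = 0.00353, SE 0.77), or 3.25 without clone 1 and 5.74 without clone 2.

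The neighbouring X-linked glypicans Gpc3 and Gpc4, proteoglycans anchored to the cell surface by a lipid, rose together. Gpc3 had 379, 415 and 268 CPM in WT_EV and 942 and 2135 CPM in WT_clone, and Gpc4 108, 107 and 167 CPM in WT_EV and 616 and 496 CPM in WT_clone. Their log2 changes were 2.12 (adjusted p = 0.00622, SE 0.44) and 2.12 (adjusted p = 0.00269, SE 0.30). Without clone 2 the value of Gpc3 was 1.43. Vim, the intermediate filament vimentin, fell in both clones, from 4649, 3826 and 4269 CPM to 1723 and 1471 CPM, a log2 change of -1.41 (adjusted p = 0.00468, SE 0.27). Of 13 members tested on this list 4 were higher and 2 lower, with a median log2 change of -0.46, beside 15.3% higher and 15.4% lower and a median of 0.03 over all genes tested. The summed level of the list was 41222 to 44535 CPM in WT_EV and 34538 to 131891 CPM in WT_clone, where Lamc1 sets the spread.

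Of 8 visceral endoderm genes tested none was higher and 1 was lower (12.5%, near the 15.4% of all genes), and with offsets 1 was higher and none lower. The lower gene was Cst3, the secreted protease inhibitor cystatin C, with 921, 650.1 and 626 CPM in WT_EV and 266 and 137 CPM in WT_clone and a log2 change of -1.86 (adjusted p = 0.0054, SE 0.37), and -0.98 under offsets, where it missed the threshold (adjusted p = 0.0574). The summed level of the list was 3990 to 7027 CPM in WT_EV and 6420 to 7989 CPM in WT_clone.

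**Figure D2:**
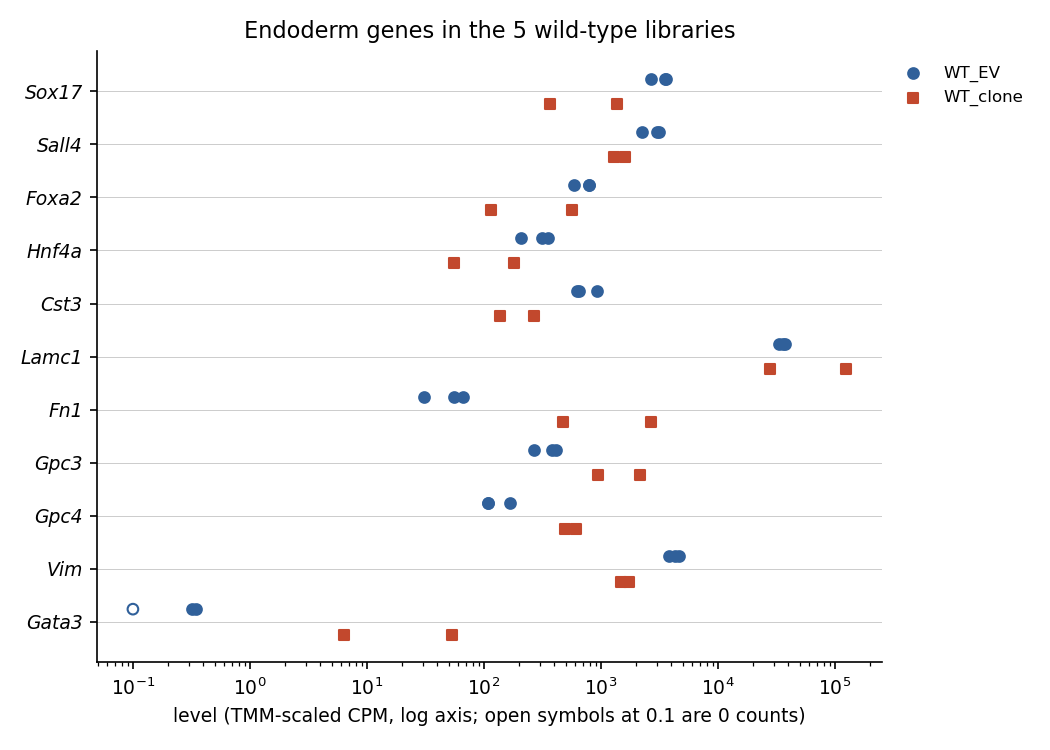
Level of 11 endoderm genes in each of the 5 wild-type libraries (TMM-scaled CPM, log axis); circles are the 3 WT_EV libraries and squares the 2 clones. Sox17, Sall4, Cst3 and Vim lie lower in both clones, Fn1, Gpc3, Gpc4 and Gata3 higher in both, and the clones fall on either side of WT_EV for Lamc1.

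The protein-coding genes with the largest rise were nearly silent in WT_EV. Plxdc2, a plexin-domain receptor, had 0 counts in all 3 WT_EV libraries and 8.75 and 57.00 CPM in WT_clone, at least 111-fold higher against a floor of 3 counts over the WT_EV group (adjusted p = 0.00312). Cd28, the T-cell co-stimulatory receptor, had 0, 0.481 and 1.38 CPM in WT_EV and 14.5 and 72.6 CPM in WT_clone, a log2 change of 6.12 (adjusted p = 0.00876, SE 1.34), or 4.56 without clone 2. Kif26b, an atypical kinesin, had 0, 0 and 0.69 CPM in WT_EV and 21.3 and 37.7 CPM in WT_clone, and Chst1, a keratan sulfotransferase of the Golgi, 0.322, 0.24 and 0.345 CPM in WT_EV and 8.15 and 44.6 CPM in WT_clone. Their counts in WT_EV were 2 and 3, and the ratios were 148 (40.5 to 1223) and 85.9 (29.1 to 419). When 1 library was left out the log2 change ran from 6.33 to 10.26 for Kif26b and from 4.68 to 7.13 for Chst1. In these 4 genes clone 2 was above clone 1. Both clones were above all WT_EV libraries, which the rule that named these genes required.

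For other genes of this set 1 clone held most of the level. Bgn, the small X-linked matrix proteoglycan biglycan, had 0.966, 1.44 and 0.345 CPM in WT_EV and 251 and 9.13 CPM in WT_clone, a log2 change of 7.05 (adjusted p = 0.00396, SE 1.21) that was 3.24 without clone 1. Car13, a cytosolic carbonic anhydrase, had 0.322, 0 and 0 CPM in WT_EV and 19.5 and 1.35 CPM in WT_clone, or 1 count over WT_EV and a ratio of 111 (19.6 to 4417). Nebl, an actin-binding relative of nebulin, had 0.644, 0.24 and 0 CPM in WT_EV and 0.754 and 43.3 CPM in WT_clone, and Trim2, a ubiquitin ligase, 0, 0.24 and 0 CPM in WT_EV and 0.905 and 22.5 CPM in WT_clone. The calls of both ended without clone 2 (adjusted p = 0.461 and 0.138), and that of Nebl also without WT_EV replicate 2 (0.0581). Scml2, an X-linked polycomb-related protein of the germline, had 0, 0 and 0.69 CPM in WT_EV and 14.2 and 6.26 CPM in WT_clone and a ratio of 53.1 (14.4 to 443). Across the 85 named genes that passed, 30 moved by more than 1.5 times when 1 library was left out, 24 of them without clone 1 and 24 without clone 2.

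Genes with the largest fall were low but measurable in WT_EV. Stk39, a kinase that controls ion cotransporters, had 30.9, 18.5 and 10.01 CPM in WT_EV and 0.302 and 0.846 CPM in WT_clone, a log2 change of -5.08 (adjusted p = 0.00241, SE 0.68), or -5.90 without clone 2. Crb2, a Crumbs polarity protein, had 18.4, 12.5 and 5.87 CPM in WT_EV and 0.905 and 0.507 CPM in WT_clone, and Endog, a mitochondrial nuclease, 73.1, 52.4 and 38.3 CPM in WT_EV and 4.83 and 4.91 CPM in WT_clone, with changes of -4.06 and -3.48 (adjusted p = 0.00613 and 0.00396). Sag, the arrestin first described in the retina, had 21.9, 15.4 and 16.6 CPM in WT_EV and 1.81 and 1.52 CPM in WT_clone (log2 change -3.41, SE 0.72, adjusted p = 0.00629). Gpr21, an orphan receptor gene that lies inside Rabgap1 on the same strand, had 6.76, 13.9 and 18.6 CPM in WT_EV and 0.302 and 1.18 CPM in WT_clone (log2 change -4.11, SE 0.84, adjusted p = 0.00565, or -3.42 without clone 1 and -5.31 without clone 2), and reads of the 2 genes may not be separable. In these 5 genes both clones lay below every WT_EV library, which the rule that named them required. Each of the 5 kept its call in all 12 alternative analyses.

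Neb, the giant muscle protein nebulin, Pdyn, the precursor of dynorphin, Fam69b and the ciliary transport gene Ttc21b completed the set. Their log2 changes were -3.86, -3.78, -3.46 and -3.31 (adjusted p = 0.0152, 0.0277, 0.027 and 0.0142), and each lost its call when 1 library was left out. Ttc21b had 24.2, 12.5 and 75.9 CPM in WT_EV and 5.73 and 1.69 CPM in WT_clone, and without WT_EV replicate 3 its change was -2.29. Pdyn had 12.9, 10.09 and 16.2 CPM in WT_EV and 1.81 and 0 CPM in WT_clone. Its change was -8.92 without clone 1 and -2.81 without clone 2. The adjusted p was 0.0523 for Neb without clone 1 and 0.0725 for Ttc21b without clone 2. With offsets it was 0.0547 for Pdyn and 0.0855 for Fam69b. For Pdyn it was 0.0513 to 0.0687 without each of the WT_EV libraries in turn. For Fam69b it was 0.0721 to 0.0845 without WT_EV replicate 1, WT_EV replicate 2, clone 1 or clone 2. One of 2 overlapping gene models that share the symbol Ptp4a1 also belonged to this set. It is left without a value, since the counting could split reads between them.

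**Figure D3:**
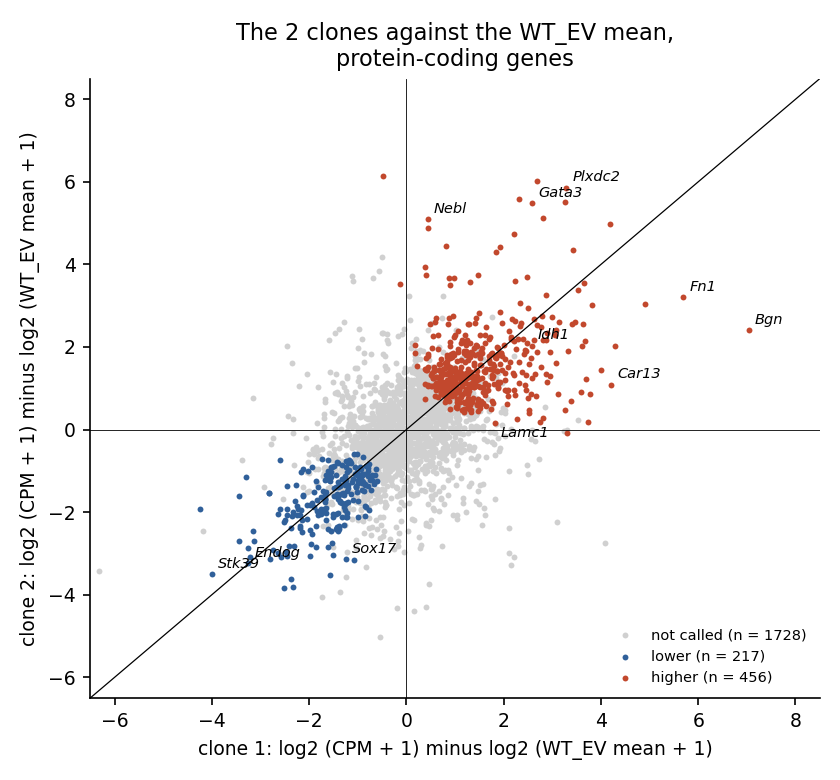
Each point is 1 of 2401 protein-coding genes, with log2 (CPM + 1) minus log2 (WT_EV mean + 1) in clone 1 on the x axis and in clone 2 on the y axis; colour gives the call and the line marks equal change. Called genes spread along the line, which is partly built in, as the call uses both clones and both axes subtract the same WT_EV mean. Single genes such as Bgn and Nebl lie far from the line because 1 clone was much higher.

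Of the 10 most abundant protein-coding genes of WT_EV 7 did not pass, Ncl and Ddx3x were higher and Flna was lower. Besides Lamc1, the top 10 of WT_EV included Glul, which makes glutamine, at 12944, 10377 and 10725 CPM in WT_EV and 10524 and 6891 CPM in WT_clone, and Ptma, a chromatin-linked acidic protein, at 11186, 8969 and 7821 CPM in WT_EV and 6675 and 5258 CPM in WT_clone. Neither passed (adjusted p = 0.294 and 0.132). Ncl, the nucleolar protein nucleolin, rose from 5367, 6609 and 7008 CPM to 13097 and 9971 CPM, a log2 change of 0.87 (adjusted p = 0.0272, SE 0.26). That call ended without WT_EV replicate 1 (adjusted p = 0.103), WT_EV replicate 2 (0.0886) or clone 1 (0.0916), and with offsets (log2 change 0.07, adjusted p = 0.854).

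Hspa5 and Pdia3 reached the top 10 in the clones. Hspa5, the main chaperone of the endoplasmic reticulum (BiP), had 3136, 3402 and 3221 CPM in WT_EV and 6357 and 7442 CPM in WT_clone, and Pdia3, a disulfide isomerase that folds glycoproteins, 1628, 1652 and 2340 CPM in WT_EV and 7598 and 4804 CPM in WT_clone. The changes were 1.08 (adjusted p = 0.0168, SE 0.29) and 1.73 (adjusted p = 0.00353, SE 0.29). Hspa5 did not pass without WT_EV replicate 1 (adjusted p = 0.0618) or WT_EV replicate 2 (0.0597), while Pdia3 passed in all 12 alternatives. On the list of endoplasmic reticulum chaperones and stress genes 5 of 16 tested were higher and none lower, beside 19% and 9.04% of protein-coding genes. They included Creb3l1, a membrane-bound transcription factor of secretory cells, with 30.6, 48.1 and 70.7 CPM in WT_EV and 817 and 136 CPM in WT_clone, a change of 3.26 (adjusted p = 0.00543, SE 0.62) that was 1.48 without clone 1. Ssr3, a subunit of the translocon-associated complex, Dnajc1 and the glycoprotein-disposal enzyme Edem3 rose by 1.07, 1.30 and 1.59 (adjusted p = 0.00819, 0.00607 and 0.00385). Atf3 and Chac1 are targets of the integrated stress response. Atf3, a transcription factor, had 47.7, 41.6 and 1529 CPM in WT_EV and 134 and 258 CPM in WT_clone, and Chac1, which breaks down glutathione, 15.5, 29.8 and 312 CPM in WT_EV and 5.58 and 20.97 CPM in WT_clone. WT_EV replicate 3 stood apart for both. Neither passed (adjusted p = 0.432 and 0.0944), and without that library Atf3 was higher in the clones by 2.12 (adjusted p = 0.0356).

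Xist, the gene the series is about, is the non-coding RNA that coats the X chromosome to be silenced. It lies at chrX:103460366-103483254, minus strand (GRCm38), and was annotated as a long intergenic non-coding RNA. Its level was 3944, 5429 and 8989 CPM in WT_EV and 15421 and 20658 CPM in WT_clone. Both clones lay above every WT_EV library, although the labels call both groups wild type. The log2 change was 1.56 (adjusted p = 0.0112, SE 0.37), or 1.04 with offsets (adjusted p = 0.0288), and it missed the threshold without WT_EV replicate 2 (adjusted p = 0.0516). In the libraries labelled with an Xist deletion it stood at 75749 and 68329 CPM in DXp and 22976 and 39458 CPM in DXp_DXm. The strand setting of the counting is not given, so antisense reads may be included.

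X-linked genes leaned higher than the autosomal genes in their counts of calls, a difference that was not itself tested. Of 532 X-linked genes 102 were higher (19.2%) and 34 lower (6.39%), with a median log2 change of 0.33. The X-linked calls fell to 49 higher and 14 lower without WT_EV replicate 1, and to 47 and 13 without WT_EV replicate 2. Of 2770 autosomal genes 402 were higher (14.5%) and 473 lower (17.1%), with a median of -0.03. Of protein-coding genes 93 of 432 on the X were higher and 23 lower, against 363 and 194 of 1969 on the autosomes. The share of counts from chromosome X was 15.9, 16.1 and 18.1% in WT_EV and 15.4 and 19% in WT_clone, so the groups overlapped (16.7 ± 1.20%, SD, n = 3, against 17.2 ± 2.53%, n = 2; exact permutation p = 0.7, two-sided, where 0.1 is the smallest that 2 against 3 can give). Without clone 2 the difference in share turned to -1.27 percentage points. Reads were not analysed here, so the silent and the active X could not be told apart.

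Among 30 genes known to be silenced on the inactive X, 10 were higher (33.3%) and 3 lower (10%), with a median of 0.59. Beside them, 19.2% of all X-linked genes were higher and 6.39% lower, with a median of 0.33. The difference was not tested. Cul4b, a cullin of ubiquitin ligases, had 384, 401 and 516 CPM in WT_EV and 1341 and 2413 CPM in WT_clone, and Lamp2, a lysosomal membrane protein, 226, 256 and 389 CPM in WT_EV and 1052 and 776 CPM in WT_clone. Xiap, an inhibitor of caspases, had 116, 176 and 276 CPM in WT_EV and 648 and 512 CPM in WT_clone. Their changes were 2.11 (adjusted p = 0.00269, SE 0.31), 1.65 (adjusted p = 0.00389, SE 0.29) and 1.62 (adjusted p = 0.00613, SE 0.34), and these 3 passed in all 12 alternatives. Pdha1, a pyruvate dehydrogenase subunit, and Atrx, a chromatin remodeller, rose by 1.26 and 1.32 (adjusted p = 0.00916 and 0.0104). The former missed the threshold without clone 2 (adjusted p = 0.0573) and the latter without clone 1, where its change was 0.71 (adjusted p = 0.0686). Flna, the actin cross-linker filamin A, went the other way, with 4678, 3724 and 7425 CPM in WT_EV and 1450 and 2220 CPM in WT_clone and a change of -1.52 (adjusted p = 0.0223, SE 0.43), lost without WT_EV replicate 3 (adjusted p = 0.0535) or clone 1 (0.0962).

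Of 15 genes known to escape silencing 3 were higher (20%) and 1 lower (6.67%), with a median of 0.32. These values are near the 19.2%, 6.39% and 0.33 of all X-linked genes. Syap1 had 69.9, 74.5 and 109 CPM in WT_EV and 257 and 228 CPM in WT_clone, a change of 1.52 (adjusted p = 0.00385, SE 0.27). Ddx3x, an RNA helicase, had 4996, 4909 and 5742 CPM in WT_EV and 8722 and 11350 CPM in WT_clone. Its rise of 0.94 (adjusted p = 0.02) was lost without WT_EV replicate 1 (0.0702), WT_EV replicate 2 (0.0863) or clone 2 (0.0751), and with offsets (0.174). The third was Bgn, described above.

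Chromatin and chromosome genes showed a few clear changes in both directions. Of 13 architecture genes 5 were higher and 2 lower, beside 19% and 9.04% of protein-coding genes. Smc4, the condensin ATPase, rose from 899.6, 1099 and 1335 CPM to 3182 and 3693 CPM, and Top1, DNA topoisomerase I, from 722, 979 and 1037 CPM to 3365 and 1955 CPM, changes of 1.63 (adjusted p = 0.00481, SE 0.32) and 1.54 (adjusted p = 0.00522, SE 0.31). Lmna, which encodes the A-type lamins of the nuclear envelope, fell from 755, 646 and 679.8 CPM to 247 and 225 CPM, a change of -1.56 (adjusted p = 0.00353, SE 0.26). Of 24 polycomb and chromatin modifier genes 6 were higher and none lower (median 0.20), but with offsets 4 were higher and 2 lower (median -0.32). Sp3, a GC-box factor on that list, rose by 1.18 (adjusted p = 0.00613). Dnmt3b, a de novo DNA methyltransferase, had 3379, 3584 and 1097 CPM in WT_EV and 1302 and 418 CPM in WT_clone and did not pass (adjusted p = 0.0676). Among 5 proteins that bind Xist RNA none passed.

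Splicing and nucleolar genes were called about as often as protein-coding genes in general, with 4 of 20 higher (20%) and 2 lower (10%). Hnrnpa3, a nuclear RNA-binding protein, rose from 787, 1256 and 1918 CPM to 7849 and 4424 CPM, a change of 2.22 (adjusted p = 0.00357, SE 0.37). Snrpb, which encodes the Sm core proteins B and B' of the spliceosomal particles, fell from 881, 866 and 618 CPM to 172 and 188 CPM, a change of -2.13 (adjusted p = 0.00269, SE 0.30). Nop10, a core protein of the box H/ACA guide particles, fell by 1.83 (adjusted p = 0.00439). Sf3b1, a subunit of the U2 particle, rose by 1.20 (adjusted p = 0.01), but by 0.49 with offsets (adjusted p = 0.19).

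Cell cycle genes were near the background, with 4 of 32 tested higher and 3 lower and a median of 0.05. The higher ones included the kinetochore gene Nuf2, at 145, 161 and 229.5 CPM in WT_EV and 463 and 368 CPM in WT_clone (log2 change 1.22, SE 0.28, adjusted p = 0.00903), and the spindle gene Nusap1, up by 1.69 (adjusted p = 0.01), which missed the threshold without clone 2 (adjusted p = 0.061). The lower ones included genes that serve DNA synthesis. Dut, which clears dUTP, had 635, 622 and 632 CPM in WT_EV and 293 and 272 CPM in WT_clone, and Pcna, the replication clamp, 1046, 679 and 764 CPM in WT_EV and 446 and 340.3 CPM in WT_clone. Dut fell by 1.16 (adjusted p = 0.00986) and Pcna by 1.08 (0.017), the second not without WT_EV replicate 1 (adjusted p = 0.0677) or clone 2 (0.0815).

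Metabolic lists moved in different directions. Idh1, the cytosolic isocitrate dehydrogenase, had 134, 132 and 166 CPM in WT_EV and 861 and 591 CPM in WT_clone, a change of 2.34 (adjusted p = 0.000825, SE 0.26). The acyl-CoA synthetases Acsl3 and Acsl4, which activate fatty acids, had 198, 165 and 209 CPM in WT_EV and 739 and 695 CPM in WT_clone, and 766, 933 and 690.2 CPM in WT_EV and 5388 and 2269 CPM in WT_clone. Their changes were 1.91 (adjusted p = 0.00358, SE 0.32) and 2.27 (adjusted p = 0.00274, SE 0.35), the second 1.53 without clone 1. These 3 genes passed in all 12 alternatives, and both clones lay above every WT_EV library in each. Of 17 central carbon genes 4 were higher (23.5%, near the 19% of protein-coding genes) and 1 lower, and of 11 cholesterol and lipid genes 4 were higher (36.4%) and none lower. Subunits of the respiratory chain leaned the other way, with 1 of 16 higher and 5 lower and a median of -0.47, which became 0.12 with offsets. Proteasome subunits were 2 of 9 lower and none higher (median -0.56, or -0.16 with offsets), and cytosolic ribosomal proteins 1 of 14 lower and none higher.

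In the TGF-beta and BMP pathway ligands bind paired type I and type II receptors, and the signal raises inhibitors of the ID family. The receptors Acvr1, Acvr2a and Bmpr2 rose. Acvr1 had 61.2, 97.8 and 135 CPM in WT_EV and 366 and 351 CPM in WT_clone, and Bmpr2 582, 727 and 770.2 CPM in WT_EV and 3428 and 1510 CPM in WT_clone. The changes were 1.87 (adjusted p = 0.00366, SE 0.32) for Acvr1, 1.17 (adjusted p = 0.00876, SE 0.26) for Acvr2a and 1.83 (adjusted p = 0.00404, SE 0.34) for Bmpr2, the last 1.14 without clone 1. Id1, the target, fell from 154, 123 and 168 CPM to 29.1 and 20.1 CPM, a change of -2.59 (adjusted p = 0.00269, SE 0.38). Of 8 genes tested on this list 3 were higher and 1 lower, beside 19% and 9.04% of protein-coding genes.

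Other signalling lists held single changes. Dusp9, a phosphatase of MAP kinases, fell from 2999, 2547 and 1647 CPM to 548 and 802 CPM (log2 change -1.83, SE 0.35, adjusted p = 0.00445), and was the only one of 9 FGF and MAPK genes to pass. Hes6, a member of the Notch-related HES family, fell from 107, 89.7 and 80.8 CPM to 22.6 and 16.2 CPM (log2 change -2.25, SE 0.43, adjusted p = 0.0046), the only one of 9 WNT and Notch genes. With offsets neither passed (adjusted p = 0.0754 and 0.0599). Of 6 interferon genes tested 3 were higher and none lower. B2m, the light chain of MHC class I, had 254, 138 and 374 CPM in WT_EV and 746 and 758 CPM in WT_clone, and Aim2, a sensor of cytosolic DNA, 1.93, 1.92 and 2.07 CPM in WT_EV and 25.2 and 17.1 CPM in WT_clone, with changes of 1.56 (adjusted p = 0.00954, SE 0.36) and 3.41 (adjusted p = 0.0109, SE 0.81). Of 10 growth factor and guidance genes 3 were higher and 2 lower, or 2 and none with offsets. Of 7 integrins and matrix receptors 2 were higher, or none with offsets, and of 12 lysosome and vesicle genes 1 was higher and 2 lower. Among p53-linked genes 2 of 8 were higher and 2 lower, and Trp53inp2, which acts in autophagy, rose by 1.71 (adjusted p = 0.00657).

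Markers of other cell types differed in level, from low sums for blood, trophoblast and neural markers to a high sum for the pluripotency list. The pluripotency list shares Sall4 with the primitive endoderm factors. In WT_EV most of its sum came from Sall4 and Dnmt3b, with levels given above. Sox2, also on that list, had 0 counts in each WT_EV library and 0 and 1 in WT_clone. Of 13 blood markers with a row only 1 was tested and none passed, with a summed level of 6.01 to 11.7 CPM in WT_EV and 6.26 to 18.6 CPM in WT_clone. Of 11 fibroblast markers 3 were tested and Bgn alone passed, while Col3a1, Col5a1, Srpx and Srpx2 had 0 counts in all 5 libraries. The summed fibroblast level was 418.2 to 725.1 CPM in WT_EV and 213.3 to 779.3 CPM in WT_clone. Most of it came from Fbn1, which is also on the basement membrane list. Fbn1 had 1865, 3008 and 1210 counts in WT_EV and 3487 and 1177 in WT_clone. Of 7 trophoblast markers 3 were tested and Gata3 alone passed, at a summed level of 20.4 to 56.0 CPM in WT_EV and 24.7 to 63.9 CPM in WT_clone. Of 14 germline markers 5 were tested and 2 were higher. They summed to 440.6 to 510.2 CPM in WT_EV and 991.0 to 1227 CPM in WT_clone, mostly from the X-linked Xlr3a and Xlr5a. Xlr3a had 383, 327 and 313 CPM in WT_EV and 827 and 836 CPM in WT_clone (log2 change 1.29, SE 0.23, adjusted p = 0.00389). Neural markers summed to 48.6 to 85.2 CPM in WT_EV and 86.9 to 153.1 CPM in WT_clone. Among 4 pluripotency genes tested 1 was higher and 2 lower, with a median of -1.17 and a summed level of 3624 to 7088 CPM in WT_EV and 3504 to 4122 CPM in WT_clone. The higher one was Tfcp2l1, a factor of naive stem cells, at 211, 268 and 112 CPM in WT_EV and 486 and 2353 CPM in WT_clone (log2 change 2.85, SE 0.64, adjusted p = 0.0105), or 1.32 without clone 2 (adjusted p = 0.0921). Of 3 neural markers tested 1 was higher. The part of other cells in any of the changes was not tested.

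Of 7 imprinted genes tested 1 was lower and none higher. That gene was Nespas, the antisense non-coding RNA of the Gnas imprinted cluster, which fell from 123, 156 and 110.4 CPM to 4.68 and 4.06 CPM, a change of -4.88 (adjusted p = 0.000522, SE 0.50) that passed in all 12 alternatives. The microRNA gene Mir296, chr2:174267047-174267125, minus strand, lies downstream of it on the same strand. It had 80 counts over the WT_EV libraries and 2 over WT_clone, 49.4 (13.2 to 415) times fewer in WT_clone (95% exact interval, counting error only).

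Most of the microRNA genes that fell belong to 1 cluster, and the rest moved in both directions. MicroRNAs are cut from hairpins into short strands that pair with target messages through the seed, bases 2 to 8. The counts here are reads over the annotated microRNA gene, which need not come from the mature strand. Mature sequences were found in the RefSeq table (GRCm38.p6) for 8 of the 98 genes tested, among them 4 that fell. These 4 lie outside the cluster described next and are shown because they are the lower genes with a matched product, with the seed in capitals.
mmu-miR-296-5p: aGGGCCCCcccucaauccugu
mmu-miR-296-3p: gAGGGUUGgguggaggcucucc
mmu-miR-652-3p: aAUGGCGCcacuaggguugug
mmu-miR-652-5p: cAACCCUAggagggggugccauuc
mmu-miR-322-5p: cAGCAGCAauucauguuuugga
mmu-miR-322-3p: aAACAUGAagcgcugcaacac
mmu-miR-6546-5p: aGGCGCCUcugagcuugugcuugu
mmu-miR-6546-3p: gAGCGAAGcccaagcgccaga
No seed is shared among the 8. Mir652 had 29 counts over WT_EV and 1 over WT_clone, a ratio of 35.8 (5.93 to 1462), and did not pass without clone 2 (adjusted p = 0.0981). Mir6546 had 26 counts over WT_EV and 0 over WT_clone, at least 10.5-fold lower. Mir322 had 16 counts over WT_EV and 0 over WT_clone, at least 6.95-fold lower. All 4 lost their calls with offsets (adjusted p = 0.855 for Mir296, 0.584 for Mir652, 0.34 for Mir6546 and 0.302 for Mir322).

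Most microRNA genes that fell lie in 1 intronic cluster of Sfmbt2, an imprinted polycomb-like gene of the placenta and yolk sac at chr2:10370510-10595253, plus strand (GRCm38). Of 119 microRNA genes counted inside it, 86 passed the filter, which they did through WT_EV, and all 86 were lower, 33 of them with offsets. Their counts, summed over all 119, were 2554, 3630 and 1547 in WT_EV and 32 and 19 in WT_clone, or 0.0946 ± 0.0243% of counts (SD, n = 3) against 0.000372 ± 6.55e-05% (n = 2). The groups did not overlap, and the exact permutation p of 0.1 is the smallest possible. In 77 genes both clones had 0 counts. Gm23571, Mir669k, Gm24761, Mir466p and Gm26398 were the largest, at least 82.01, 81.3, 64.9, 64.8 and 64.03-fold lower. Sfmbt2 itself had 2461, 3037 and 1849 CPM in WT_EV and 1440 and 1718 CPM in WT_clone and did not pass (log2 change -0.63, SE 0.33, adjusted p = 0.154; -1.40 with offsets, adjusted p = 0.0142). Of 12 microRNA genes tested outside Sfmbt2, 5 were lower and 2 higher, and with offsets none was lower and 5 were higher.

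Small nuclear, nucleolar and Cajal-body RNAs, counted together with genes annotated as misc_RNA, took a smaller share of counts in the clones. RNAs of the named kinds build the spliceosome or guide the chemical modification of ribosomal and spliceosomal RNA. The nucleolar ones are usually processed from introns. Of 58 tested 27 were lower and 1 higher, beside 15.4% and 15.3% of all genes. The direction turned with offsets, to 8 lower and 17 higher (median 1.18), and 16 were lower without WT_EV replicate 2 or clone 2 and 17 without WT_EV replicate 3. A gene that passed the filter through WT_EV alone had to be lower, so such counts are descriptions, while the shares cover all genes of the class. The class took 0.290, 0.240 and 0.261% of counts in WT_EV and 0.0117 and 0.0142% in WT_clone (exact permutation p = 0.1, the smallest possible). Snord17 and Scarna6 are shown as examples with large counts in WT_EV, from the GENCODE M21 transcripts, with the letters TGATGA and CTGA nearest their ends in capitals, as in the C and D boxes that mark a family of guide RNAs.
Snord17: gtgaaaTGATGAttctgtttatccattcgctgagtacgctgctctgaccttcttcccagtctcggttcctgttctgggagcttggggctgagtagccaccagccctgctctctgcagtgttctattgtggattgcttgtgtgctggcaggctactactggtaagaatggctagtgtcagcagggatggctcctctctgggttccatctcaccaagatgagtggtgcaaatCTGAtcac
Scarna6: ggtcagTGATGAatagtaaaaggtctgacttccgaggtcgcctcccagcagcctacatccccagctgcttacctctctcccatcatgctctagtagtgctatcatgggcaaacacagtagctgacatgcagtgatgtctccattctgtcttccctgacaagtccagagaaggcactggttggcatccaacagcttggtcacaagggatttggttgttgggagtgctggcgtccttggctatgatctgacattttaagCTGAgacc
Both boxes stood within 15 bases of the ends, on the transcript strand, in 12 of the 53 small nuclear, nucleolar and Cajal-body genes searched. They were 5 of 23 lower genes and 7 of 29 that did not pass, and misc_RNA genes were not searched. Snord17, chr2:144265979-144266216, minus strand, lies inside Snx5 and had 405, 288 and 309.9 CPM in WT_EV and 2.72 and 5.92 CPM in WT_clone, a log2 change of -6.27 (adjusted p = 7.6e-05, SE 0.48), or -6.91 without clone 2. Scarna6, chr1:87784556-87784820, plus strand, lies inside Atg16l1 and had 70.9, 56.5 and 68.7 CPM in WT_EV and 1.81 and 0.507 CPM in WT_clone, a change of -5.77 (adjusted p = 0.00189, SE 0.71), or -6.91 without clone 1 and -5.13 without clone 2. Snord82 lies inside Ncl. It had 90 counts over WT_EV and 3 over WT_clone, a ratio of 37.02 (12.3 to 183). Its log2 change was -5.10, or -4.40 without WT_EV replicate 1. Ncl rose as given above, but with offsets neither passed (adjusted p = 0.362 for Snord82 and 0.854 for Ncl).

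Another class holds genes of the GENCODE classes TEC (predicted transcripts that await experimental proof) and sense intronic, a grouping chosen after its values were seen. Since the grouping was chosen for its values, its counts and shares are given as descriptions, with no test. Of 248 tested 109 were lower and 3 higher, with 63 lower without WT_EV replicate 2 and 71 without clone 1, beside 15.4% lower and 15.3% higher of all genes. Of the 109 that fell 98 (89.9%) lie inside a protein-coding gene on the same strand, as do 109 (80.1%) of the 136 that did not pass. The hosts were not lower in this test. The 59 hosts tested had a median log2 change of 0.54, and 18 were higher, 41 uncalled and none lower. Beside them, 19% of protein-coding genes were higher and 9.04% lower, with a median of 0.20. For protein-coding transcripts of 6000 nt and over these were 27.1%, 3.07% and 0.50. A difference between hosts and other long genes was not tested. The class took 0.217, 0.374 and 0.367% of counts in WT_EV and 0.0811 and 0.114% in WT_clone, groups that did not overlap. With offsets 96 were lower and 12 higher.

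Of 222 long non-coding RNA genes tested 12 were higher (5.41%) and 41 lower (18.5%), beside 15.3% and 15.4% of all genes. Of 290 pseudogenes 32 were higher (11%) and 27 lower (9.31%). With offsets 16 long non-coding RNA genes were higher and 35 lower, and 68 pseudogenes were higher and 12 lower. The non-coding genes of largest rise were pseudogenes. Gm13339, which lies inside Myo3a on the opposite strand, had 323, 244 and 372 CPM in WT_EV and 8455 and 1376 CPM in WT_clone (log2 change 3.97, SE 0.80, adjusted p = 0.00638; 2.16 without clone 1), and together with Gm13340 and Gm13341 took 4.2 to 6.78% of counts in WT_EV and 11.75 and 5.998% in WT_clone. These genes, and Gm28439 below, copy mitochondrial sequence, so reads from mitochondrial RNA cannot be told apart from theirs. Gm7846 and Gm5540, both processed pseudogenes, rose by 3.19 and 3.14 (adjusted p = 0.00353 and 0.00561), the first by 2.46 without clone 2. Gm28439 and Gm37784 rose by 3.45 and 3.54 (adjusted p = 0.0199 and 0.0244), calls that ended without clone 1 (adjusted p = 0.215 and 0.498) and without WT_EV replicate 1 (0.0647 and 0.0953) or 2 (0.0701 and 0.0593), and for Gm37784 without WT_EV replicate 3 (0.0649). All processed pseudogenes may share reads with their parent genes.

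**Figure D4:**
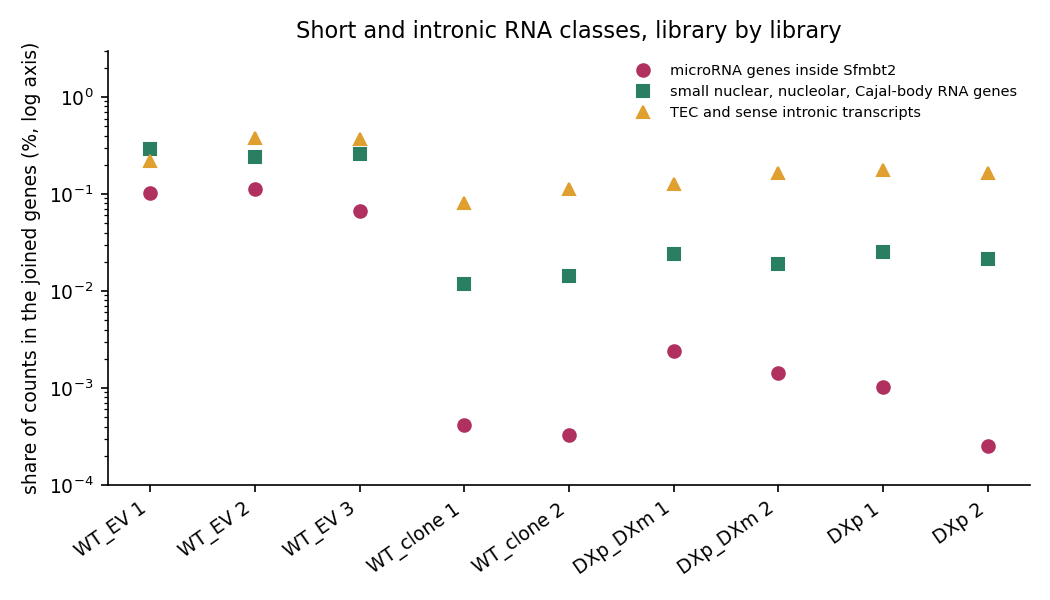
Share of the counts of joined genes taken by 3 RNA classes in each of the 9 libraries (%, log axis). For microRNA genes inside Sfmbt2 the WT_EV libraries sit between 0.0673 and 0.114% and the 2 clones at 0.000419 and 0.000326%, with the 4 libraries labelled DXp or DXp_DXm between 0.000254 and 0.00238%.

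The libraries labelled DXp and DXp_DXm were set beside both wild-type groups for these classes. The small nuclear, nucleolar and Cajal-body share, misc_RNA included, was 0.0253 and 0.0213% in DXp and 0.0238 and 0.0189% in DXp_DXm, nearer to WT_clone than to WT_EV. Summed counts of the Sfmbt2 microRNA genes were 59 and 17 in DXp and 148 and 92 in DXp_DXm. Snord17 had 6.26 and 7.86 CPM in DXp and 5.41 and 3.46 CPM in DXp_DXm, and Nespas 2.24 and 2.56 CPM in DXp and 4.19 and 9.18 CPM in DXp_DXm. Several of the protein-coding genes that were low in the clones were low there as well. Endog had 0.447 and 0.171 CPM in DXp and 0.349 and 1.21 CPM in DXp_DXm, and Crb2 0.224 and 0.854 CPM in DXp and 0.523 and 0.693 CPM in DXp_DXm. Others were not. Stk39 had 237 and 311 CPM in DXp and 26.7 and 14.7 CPM in DXp_DXm, and Car13, high in clone 1, had 96.2 and 95.98 CPM in DXp and 28.4 and 14.2 CPM in DXp_DXm. Plxdc2, at 0 in WT_EV, had 6.49 and 15.2 CPM in DXp and 12.6 and 10.7 CPM in DXp_DXm.

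The difference between the groups followed the composition of transcripts. Among protein-coding genes the median log2 change was 0.85 for transcripts under 42% GC, 0.54 from 42 to 48%, -0.08 from 48 to 54% and -0.75 at 54% and over. In the class of lowest GC content 154 of 418 were higher and 10 lower, and in that of highest GC content 16 of 446 were higher and 109 lower. For all genes length ran alongside, from a median of -2.21 under 500 nt to 0.48 at 6000 nt and over. Of the 289 genes under 500 nt only 9 are protein-coding, with a median of -0.27. Protein-coding medians were -0.36 from 500 to 1500 nt and 0.50 at 6000 nt and over. GC content and length together accounted for 27.9% of the variance of log2 changes over all genes and 15.5% over protein-coding genes. Offsets fitted per library on both move the medians of these classes toward 0 by construction. With them the medians of all genes lay between -0.11 and 0.26. The class under 42% GC hardly moved, from 0.28 to 0.26. Because the small RNAs are among the shortest genes, a length offset takes up part of any difference of that class by its construction: with it 33 of 98 microRNA genes and 8 of 58 small RNA genes were lower, and 17 of the latter were higher. Count table and clone origin differ together between WT_clone and WT_EV and the kit of each library is unknown, so these cannot be told apart from the group. The libraries labelled DXp and DXp_DXm are in the count table of WT_EV. Their small RNA share was 0.0189 to 0.0253%, beside 0.240 to 0.290% in WT_EV and 0.0117 and 0.0142% in WT_clone. What sets the libraries apart in this share was not tested.

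**Figure D5:**
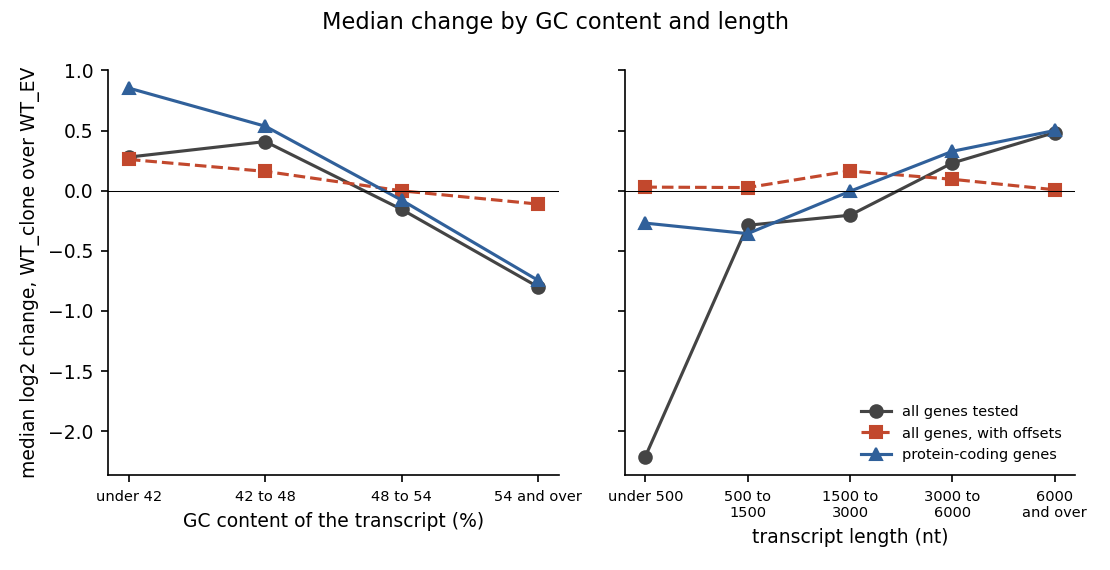
Median log2 change, WT_clone over WT_EV, by GC content (left, %) and length (right, nt) of the longest annotated transcript, for all genes tested, all genes with offsets, and protein-coding genes. Medians fall from 0.85 to -0.75 with rising GC content in protein-coding genes, and the offsets bring the medians of all genes to between -0.11 and 0.26.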

How the data were processed

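RNA-seq of total RNA was analysed as counts. Per the submitters' processing notes, reads were checked with FastQC, STAR (2.7.9a) and featureCounts (2.0.1) were used, and the genome build was GRCm38 (mm10). The authors deposited raw read counts per gene, not normalized, in 2 tables. Strand and multi-mapping settings are not given in the labels. The WT_clone table was held only in part, which is why 11512 genes could be joined. Symbols were matched to GENCODE M21 for 11432 of them.

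Counts were scaled by TMM and tested in edgeR (4.0.16, R 4.3.3) with quasi-likelihood fits over all 9 libraries, a group term, filterByExpr and Benjamini-Hochberg adjustment over 3302 genes (threshold 0.05); every adjusted p in the text comes from this test unless another tool is named. The other 8210 genes had too few counts. The biological coefficient of variation was 39.3%. On simulated counts of 3115 genes with 200 changed, 7% of 2-fold and 67% of 4-fold changes were recovered, with 3 false calls. The changed genes were drawn from those of at least 10 CPM, and the other groups were simulated without differences. In the real data 30.6% of genes passed, so these rates need not hold there. Replicates were checked for duplicates: their counts differed by 23.5 to 490 times the sampling expectation.

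Named genes were the 10 higher and 10 lower called protein-coding genes of largest change whose groups do not overlap (mean of at least 10 CPM in the higher group, predicted gene symbols left out), the 5 higher and 5 lower non-coding genes, the 10 most abundant protein-coding genes of each group, Xist, and members of fixed lists and classes. The members and lists were chosen with earlier results of these data known. Ratios with 1 to 3 counts in a group carry exact 95% intervals, and folds against 0 counts use a floor of 3 counts over the group; both cover counting error only.

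The alternatives were DESeq2 (1.42.0), no filter, the 5 libraries alone, GC and length offsets, a replicate block with and without offsets, TMM from autosomal protein-coding genes, and leaving out each library. Some genes are not reported here.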

Additional observations from a re-analysis of the deposited data

How the results depend on the processing

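Of the 85 named genes that passed, 50 kept their call in all 12 alternatives and 65 when each library was left out in turn. For 5 genes some alternatives gave no value: Car13 kept its call in the 11 that did, while Trim2, Nebl, Gm37784 and Mir652 lost theirs in some. Leaving out 1 library gave 552 to 1057 changed genes, 240 to 556 higher and 298 to 501 lower. It gave 60 to 153 changed X-linked genes, 47 to 104 higher and 13 to 50 lower, and DESeq2 gave 52 lower. List members that passed numbered 49 to 103, small RNA genes that fell 16 to 19, and intronic transcripts that fell 63 to 96. The log2 change of Xist ran from 1.31 to 1.93 and was 1.46 (adjusted p = 0.0516) without WT_EV replicate 2. The X share of counts changed by -1.27 to 2.31 percentage points. Lamc1 ran from -0.32 to 1.82 and Atf3 from -2.03 to 2.12. With offsets 33 microRNA and 8 small RNA genes were lower. The small RNA share over autosomal protein-coding genes differed by -0.33 percentage points. DESeq2 and autosomal scaling moved the median log2 change of all genes by -0.11. The cause of these moves was not tested.

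Replicate numbers were not used as a pairing in the main fit. Deviations of same-numbered libraries from their group means correlated at 0.058 and 0.016 over 2 pairs. With 2 clones these deviations mirror each other, so the correlations cannot decide if a pairing exists. The replicate block left 847 changed genes, 409 higher and 438 lower, and 772 were called in the same direction as without it. With the block and offsets together 597 genes changed, 238 of them lower, with 58 list members, 9 microRNA genes, 7 small RNA genes and 66 intronic transcripts. Atf3 was 2.03 with the block and 2.58 with the block and offsets. With 2 clones the exact permutation test cannot go below 0.1.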
